A study of Mus musculus with 16 samples.

Results

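The expression of 10 genes that lie beside Wrn on mouse chromosome 8 was examined in murine B cell lymphomas with and without a helicase-deleted Wrn gene. They are Mak16, Fut10, Ppp2cb, Saraf, Eri1, Fnta, Ash2l, Tacc1, Plekha2 and Mtus1. All lie within 50 protein-coding genes of Wrn in the gene order of assembly GRCm38.p6. They were picked with their signal in the 2 genotypes already known, so their genotype differences are given as a description, with no test. The array holds 27 probes for these 10 genes, out of 25697 probes and 16590 named genes in all.

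There were 4 tumours with Eµ-Myc alone and 4 with Eµ-Myc and the Δhel allele on both copies of Wrn, called Eµ-Myc and Wrn tumours below. Both groups share the Eµ-Myc transgene, which drives Myc from an immunoglobulin heavy chain enhancer in B lineage cells, and the strain is given as C57B6 for both. Age and treatment are not given in the labels. Tumours are numbered 1 to 4 within a genotype as in the labels. A letter, E or L, whose meaning is not given, divides each genotype. E marks tumours 1 and 3 of the Eµ-Myc group and tumours 2 and 4 of the Wrn group, and L marks the others. Whether each tumour is from its own mouse is not stated in the labels, so a p-value here speaks only of the spread among these 8 samples, which may be technical.

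Wrn encodes a RecQ helicase that acts in DNA repair and replication, and the Δhel allele lacks part of its helicase domain. A targeted allele is inherited together with the chromosome sequence next to it, and in these samples the Wrn allele and the sequence that came with it cannot be told apart. The members' known roles differ. Mak16 and Eri1 act on ribosomal and other RNA, Saraf on calcium entry, Ppp2cb, Plekha2 and Fnta in signalling and protein modification, Fut10 in protein fucosylation, Ash2l in histone methylation, and Tacc1 and Mtus1 at microtubules.

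Median raw probe signal lay between 49.9 and 52.8 per array, 10607 to 11369 probes per array were detected, and tumours correlated at 0.945 to 0.984 over 11024 tested probes. Of 11 B cell marker genes on the array, 9 were detected in all 8 tumours, whereas Pax5 and Cr2 were detected in none. Macrophage markers were lower in Wrn tumours for 14 of 14 tested probes, with a median log2 difference of -0.48, and their summed lumi intensity ran from 8395 to 12774 in Eµ-Myc and from 5807 to 10448 in Wrn tumours. B cell markers were higher for 12 of 13 probes, with a median of 0.34 and summed intensities of 15525 to 23307 and 17737 to 32522. The 3 tested T cell probes were lower in Wrn tumours (median -0.47), with sums of 43.2 to 863.7 and 53.3 to 190.9, and Cd4, Cd8a and Trat1 were detected in no tumour. Erythroid markers were lower for 3 of 3 probes (median -0.62), with sums of 5219 to 25907 and 1499.9 to 16136. Granulocyte markers were lower for 6 of 7 probes (median -0.33), with sums of 110.4 to 2862 and 113.7 to 783, and endothelial markers were higher for 6 of 9 (median 0.013), with sums of 1730.2 to 2669 and 1616 to 2946. Of all these marker probes 0 passed by limma, beside 0.0363% of all tested probes. At an unadjusted p under 0.05 there were 7, namely 3 of 13 B cell and 4 of 14 macrophage probes, beside 3.76% of all. The part of these cell types in the differences below was not tested. In tumour RNA, fewer cells of a type and less RNA per cell cannot be told apart.

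Values in single tumours are given below as lumi intensities, which are linear, background-subtracted and can fall below 0. Differences between genotypes are Wrn minus Eµ-Myc on the log2 scale of the separately normalized signal (neqc), with the standard error (SE) of the limma fit over all tested probes. A probe was tested if its detection p was under 0.01 on 4 or more of the arrays. Of the 27 probes, 19 were tested, at least 1 for each of the 10 genes. Of the 8 others, 6 were detected on no array. Of the 19, 5 passed through detection in all tumours of 1 genotype with at most 2 tumours of the other, so a difference was built into their selection.

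Among the 19 tested probes, 9 were higher and 10 lower in the mean of the Wrn tumours. The genotypes did not overlap for 9 probes of 7 genes, beside 2.21% of all tested probes. Of these 9, 6 were higher in Wrn tumours (1.30% of all) and 3 were lower (0.916% of all). The members were chosen on this contrast, so the count describes them and supports nothing.

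**Figure D1:**
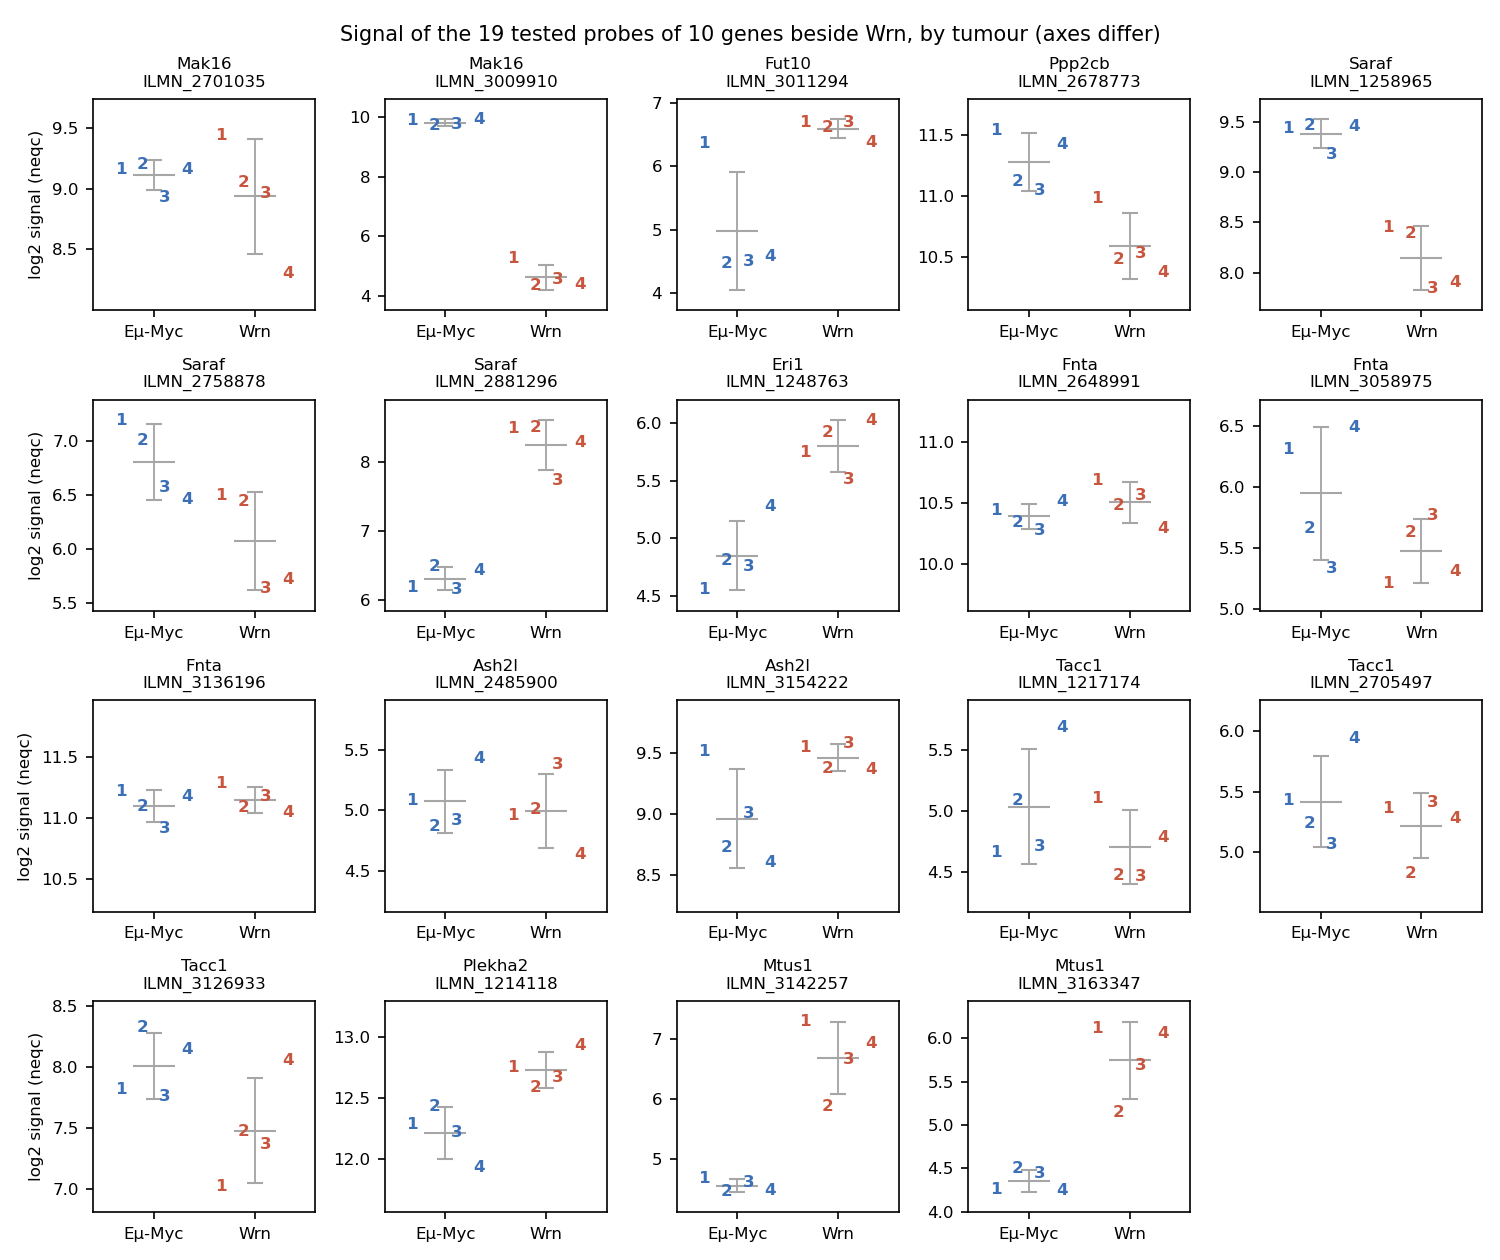
Signal of each of the 19 tested probes (log2 after neqc, vertical axes differ between panels) in the 4 Eµ-Myc tumours (blue) and the 4 Wrn tumours (red). Each digit is the number of a tumour, horizontal bars are means and whiskers are SD. The genotypes separate without overlap in 9 panels, and for Mak16 and Saraf they do so for some probes of the gene and not for others.

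Mak16 encodes a nucleolar protein that takes part in assembly of the large ribosomal subunit, as known from yeast. It lies 4 genes before Wrn and was read by 2 probes annotated to the same transcript. Probe ILMN_3009910 read 935.3, 817.6, 835.8 and 951.8 in Eµ-Myc tumours 1 to 4, and 22.0, 2.4, 6.9 and 2.9 in Wrn tumours 1 to 4. Every Wrn tumour lay far below every Eµ-Myc tumour, and only Wrn tumour 1 was above the detection limit. The means were 885 ± 68.2 and 8.55 ± 9.19 (SD, n = 4), and the log2 difference was -5.18 ± 0.22 (SE).

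The other Mak16 probe, ILMN_2701035, read 556.6, 572.6, 471.1 and 555.7 in Eµ-Myc tumours and 677.2, 514.0, 480.8 and 299.6 in Wrn tumours. The genotypes overlapped, with the highest and the lowest reading both in Wrn tumours. Its log2 difference was -0.18 ± 0.23 (SE, n = 4 per genotype), and it turned to 0.036 without Wrn tumour 4. Mak16 RNA was therefore detected by 1 probe in all 8 tumours and by the other in 4 Eµ-Myc tumours and 1 Wrn tumour.

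Eri1 encodes an exoribonuclease that trims ribosomal RNA and takes part in the decay of histone mRNA. It lies 16 genes after Wrn and has 1 probe. The probe read 7.1, 12.0, 11.0 and 22.7 in Eµ-Myc tumours and 37.9, 44.8, 29.7 and 49.4 in Wrn tumours. All readings were dim, 2 of the 4 Eµ-Myc tumours were above the detection limit, and every Wrn tumour lay above every Eµ-Myc tumour. The log2 difference was 0.95 ± 0.20 (SE, n = 4 per genotype).

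Saraf encodes a membrane protein of the endoplasmic reticulum that turns off store-operated calcium entry. It lies 12 genes after Wrn, and its 3 probes are annotated to the same transcript. Probe ILMN_1258965 read 679.1, 693.5, 562.6 and 688.6 in Eµ-Myc tumours and 332.6, 320.2, 213.6 and 223.6 in Wrn tumours. On this probe every Wrn tumour was lower, with a log2 difference of -1.24 ± 0.20 (SE, n = 4 per genotype).

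Probe ILMN_2881296 of Saraf read 56.4, 73.4, 54.9 and 69.8 in Eµ-Myc tumours and 342.1, 345.9, 196.8 and 295.7 in Wrn tumours. Here every Wrn tumour was higher, the opposite of the first probe, with a log2 difference of 1.94 ± 0.21 and means of 63.6 ± 9.35 and 295 ± 69.4 (SD). The remaining probe, ILMN_2758878, read 130.6, 112.3, 79.0 and 72.4 in Eµ-Myc tumours and 74.6, 71.0, 34.0 and 36.9 in Wrn tumours. It was lower in the mean of the Wrn tumours, by -0.73 ± 0.26 on the log2 scale, but Wrn tumour 1 lay above Eµ-Myc tumour 4.

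**Figure D2:**
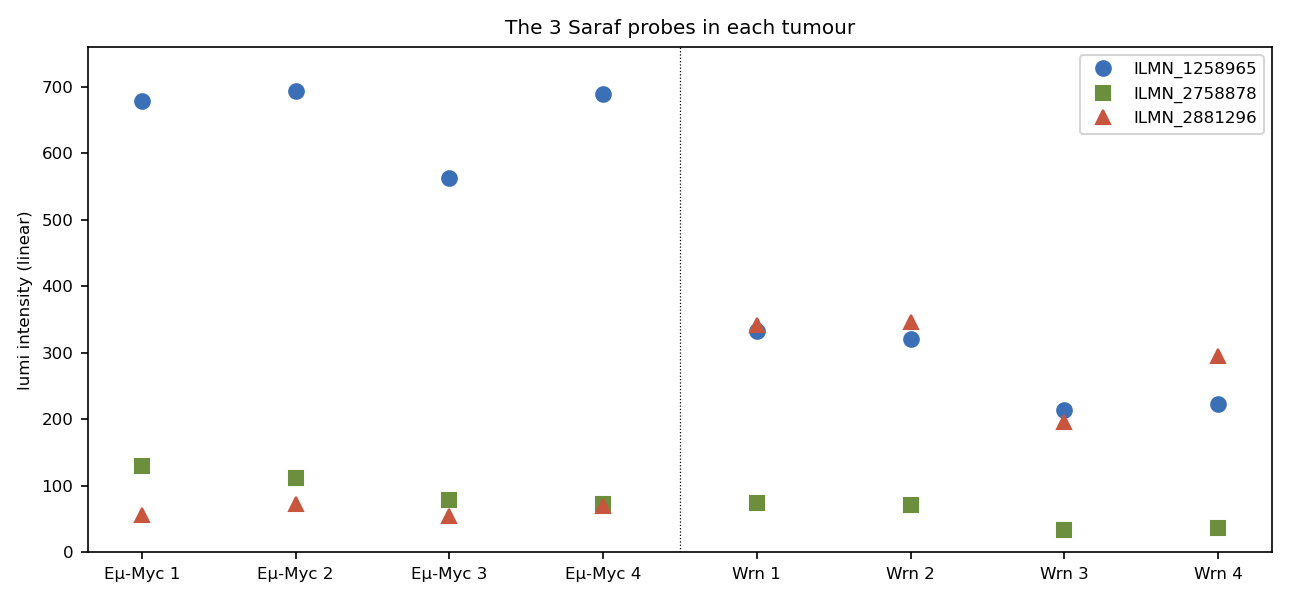
Lumi intensity (linear, vertical axis) of the 3 Saraf probes in each of the 8 tumours (horizontal axis). Probe ILMN_1258965 (circles) lies between 562.6 and 693.5 in Eµ-Myc tumours and between 213.6 and 332.6 in Wrn tumours, while ILMN_2881296 (triangles) runs the other way, from 54.9 to 73.4 and from 196.8 to 345.9.

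Fut10 encodes a member of the fucosyltransferase family and lies 3 genes before Wrn, next to Mak16. Its 3 probes are annotated to 2 transcripts, and 1 was tested. That probe, ILMN_3011294, read 66.5, 5.2, 6.1 and 7.6 in Eµ-Myc tumours and 88.1, 81.6, 87.3 and 67.2 in Wrn tumours. Every Wrn tumour was higher, but Eµ-Myc tumour 1 came within 1 unit of the lowest Wrn tumour while the other Eµ-Myc tumours were not detected. The log2 difference was 1.61 ± 0.38 (SE), and 2.08 without Eµ-Myc tumour 1.

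The other 2 Fut10 probes were dim. Probe ILMN_2665035, of the other transcript, read 29.9 in Eµ-Myc tumour 1, its only detected reading, against 6.0 to 7.9 in the other Eµ-Myc tumours and 5.0 to 11.4 in Wrn tumours. Probe ILMN_3081776 read 9.4, -0.6, 0.0 and 4.4 in Eµ-Myc tumours, where it was not detected, and 21.5, 7.5, 20.7 and 11.8 in Wrn tumours, where it was detected in 3. On this probe the Eµ-Myc readings, all below the detection limit, have no order.

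Ppp2cb encodes the beta form of the catalytic subunit of protein phosphatase 2A and lies 3 genes after Wrn. Its 1 probe read 2963.6, 2206.8, 2100.1 and 2738.3 in Eµ-Myc tumours and 2008.5, 1413.6, 1459.6 and 1311.7 in Wrn tumours. Every Wrn tumour was lower, although Wrn tumour 1 came close to Eµ-Myc tumour 3. The means were 2502 ± 415 and 1548 ± 313 (SD, n = 4), a log2 difference of -0.69 ± 0.20 (SE).

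Plekha2 encodes an adaptor whose pleckstrin homology domain binds a phosphoinositide made downstream of PI3-kinase. It lies 40 genes before Wrn. Its 1 probe read 4971.3, 5520.4, 4754.2 and 3881.8 in Eµ-Myc tumours and 6872.5, 6136.2, 6498.3 and 7801.3 in Wrn tumours. The genotypes did not overlap, and the log2 difference was 0.52 ± 0.18 (SE, n = 4 per genotype).

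Fnta encodes the alpha subunit shared by the enzymes that attach farnesyl and geranylgeranyl lipids to proteins. It lies 25 genes before Wrn. Its 2 brighter probes gave log2 differences of 0.11 ± 0.16 for ILMN_2648991 and 0.049 ± 0.16 for ILMN_3136196, and the latter turned to -0.017 under median scaling and -0.012 without Eµ-Myc tumour 3. The dimmer probe, ILMN_3058975, read 63.1, 34.5, 24.3 and 74.1 in Eµ-Myc tumours and 21.0, 33.6, 38.4 and 23.5 in Wrn tumours, a log2 difference of -0.47 ± 0.27 that was -0.29 without Eµ-Myc tumour 4. On all 3 probes the genotypes overlapped.

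Ash2l encodes a core subunit of the complexes that methylate histone H3 at lysine 4. It lies 29 genes before Wrn. Probe ILMN_3154222 read 717.1, 408.4, 496.5 and 371.7 in Eµ-Myc tumours and 732.4, 646.2, 747.7 and 643.4 in Wrn tumours. Eµ-Myc tumour 1 lay among the Wrn tumours and the other 3 below them, and the log2 difference was 0.50 ± 0.22 (SE). A second probe, ILMN_2485900, read between 8.8 and 27.3 in all tumours with a log2 difference of -0.077 ± 0.21, which turned to 0.042 without Eµ-Myc tumour 4 or Wrn tumour 4. The last Ash2l probe was detected on no array.

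Mtus1 encodes a family of microtubule-associated proteins made from several transcripts. It lies 40 genes after Wrn, the farthest on that side, and has 6 probes, 2 for each of 3 annotated transcripts. Probe ILMN_3142257 read 9.6, 5.3, 8.1 and 5.6 in Eµ-Myc tumours and 139.9, 42.8, 85.4 and 105.6 in Wrn tumours. Probe ILMN_3163347, of another transcript, read -1.2, 5.8, 4.5 and -1.5 in Eµ-Myc tumours and 53.4, 19.5, 35.4 and 50.2 in Wrn tumours. Both were above the detection limit in all 4 Wrn tumours and below it in all 4 Eµ-Myc tumours, and both put Wrn tumour 2 lowest and Wrn tumour 1 highest. The differences were at least 3.64-fold and at least 1.90-fold, each the mean of the Wrn tumours against the lowest detectable signal where the dim reading fell below it. The other 4 Mtus1 probes, among them the second probe of each of these transcripts and both probes of the remaining one, were detected on no array.

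Tacc1 encodes a coiled-coil protein of centrosomes and microtubules and lies 39 genes before Wrn. Probe ILMN_3126933, the only one of its transcript, read 209.7, 305.8, 200.4 and 266.9 in Eµ-Myc tumours and 114.0, 162.1, 148.8 and 250.5 in Wrn tumours. Wrn tumour 4 lay among the Eµ-Myc tumours and the other 3 below them, and the log2 difference was -0.53 ± 0.24 (SE). Of the 3 probes of the other transcript, ILMN_1217174 and ILMN_2705497 had log2 differences of -0.33 ± 0.26 and -0.20 ± 0.23, and the last was detected on no array. Without Eµ-Myc tumour 4 these differences were -0.11 and -0.024. ILMN_1217174 read 9.1 to 35.3 in Eµ-Myc and 5.0 to 18.5 in Wrn tumours. It was detected in 2 tumours of each genotype, so part of its values is background. ILMN_2705497 was detected in all tumours but also dim, at 17.6 to 45.4 in Eµ-Myc and 12.4 to 26.6 in Wrn tumours. The tested Tacc1 probes were all lower in the mean of the Wrn tumours, with these dim probes among them, and the genotypes overlapped on each.

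Whether probes of 1 gene agreed was then set against the rest of the array. Over 1962 genes with 2 or more tested probes, the highest and the lowest genotype difference of a gene's probes lay a median of 0.12 apart on the log2 scale, and 95% of genes lay within 0.42. Mak16, at 5.01, and Saraf, at 3.18, had the widest and second widest gaps of all 1962 genes, and the next gene, Copg1, had 1.07. Saraf was the 1 gene of the 1962 with 1 probe wholly higher and another wholly lower in Wrn tumours. The Mak16 gap depends in size on how undetected readings are treated, since 3 of the 4 Wrn readings of ILMN_3009910 were below the detection limit. Fnta ranked 31st with 0.58, Ash2l 32nd with 0.58 and Tacc1 188th with 0.33, while the differences of the 2 Mtus1 probes are bounds and give no gap. The gaps of Fnta, Ash2l and Tacc1 each have a dim probe at 1 end, namely ILMN_3058975, ILMN_2485900 and ILMN_2705497. Of these, ILMN_2485900 was detected in only 3 of the 4 Wrn tumours. The normalization offset understates changes of dim probes, so the size of these gaps depends on it. Probes of both signs occurred in 3 of these 6 members (Saraf, Fnta and Ash2l) and in 25.8% of the 1962 genes. As before, these values come from the contrast that chose the members. The probes' sequences and positions in the transcripts were not used here.

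The tumours of 1 genotype gave a comparison that the choice of members did not use. Each probe's deviations from its genotype mean were correlated with those of the other probes of its gene over the 8 tumours, which share the arrays, with exact permutation of tumours within genotypes (576 orders, two-sided) and adjustment over 12 pairs. Of the 12 pairs 0 passed by Pearson r (3 at an unadjusted p under 0.05, 1 of them Mtus1). In 7 pairs both probes were detected in all 8 tumours, and r was positive in 7 of these 7. It ran from 0.070, for ILMN_2705497 and ILMN_3126933 of Tacc1, to 0.86. The share of positive pairs among other genes is not given, so nothing is read from this count. The 2 Saraf probes with separated genotypes and opposite differences had Pearson r = 0.80 (exact permutation p = 0.0122, adjusted 0.0729) and a Spearman coefficient of 0.90 (exact permutation p = 0.0139, adjusted 0.0833). Without the 2 tumours farthest from the median on ILMN_1258965, r was 0.85. The 2 brighter Fnta probes had r = 0.86 (exact permutation p = 0.00868, adjusted 0.0729), a Spearman coefficient of 0.88 (exact permutation p = 0.0139, adjusted 0.0833) and r = 0.86 without the farthest 2 on ILMN_2648991. In the remaining pairs detected in all 8 tumours r moved more when 2 tumours, picked on 1 probe, were left out. It went from 0.83 to 0.68 and 0.57 to 0.21 for Saraf. For Fnta it went from 0.48 to 0.95 and 0.57 to 0.15, and for Tacc1 from 0.070 to -0.058. The other 5 pairs, those of Mak16, Mtus1, Ash2l and 2 of Tacc1, hold a probe that was not detected in all 8 tumours, so part of their deviations is background and their values are not given.

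The members were next placed among their neighbours. Of the members, 6 lie before Wrn and 4 after it, and both the farthest before, Plekha2, and the farthest after, Mtus1, are 40 genes away. Within 50 genes on each side 30 genes were tested, of which 10 are members, 1 is Wrn and 19 are neither. The tested Wrn probe, ILMN_1244390, was lower in every Wrn tumour, with a log2 difference of -0.75 ± 0.22 (SE). By the probe with the largest difference, 6 of the 19 other genes were higher and 13 lower, from -0.58 for Leprotl1 to 0.65 for Prag1, followed by Dctn6 at -0.47 and Ubxn8 at 0.41. The median size of these 19 differences was 0.25, where the largest probe of each gene was taken, against 0.16 over all tested probes.

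Of the 19 genes 2, Plpp5 and Thap1, had a probe whose genotypes did not overlap, beside 2.21% of all tested probes (counted by probe, not by gene). That count was 4 without Eµ-Myc tumour 3, 6 without Eµ-Myc tumour 4, 5 without Wrn tumour 2 and 4 without Wrn tumour 4. Groups separate more easily with a tumour left out, and the share of all probes is not given for these counts, so nothing is read from the rise. Members and other tested genes were interspersed along the chromosome, with runs of either kind. Between Wrn and Saraf, for example, the tested genes after Ppp2cb were Ubxn8, Gtf2e2, Rbpms, Dctn6 and Leprotl1, all with overlapping genotypes and log2 differences from -0.58 to 0.41. The nearest tested genes beyond 50 on each side, Golga7 at 53 genes before and Gm5347 at 52 after, differed by 0.098 ± 0.19 and -0.034 ± 0.16 (SE).

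**Figure D3:**
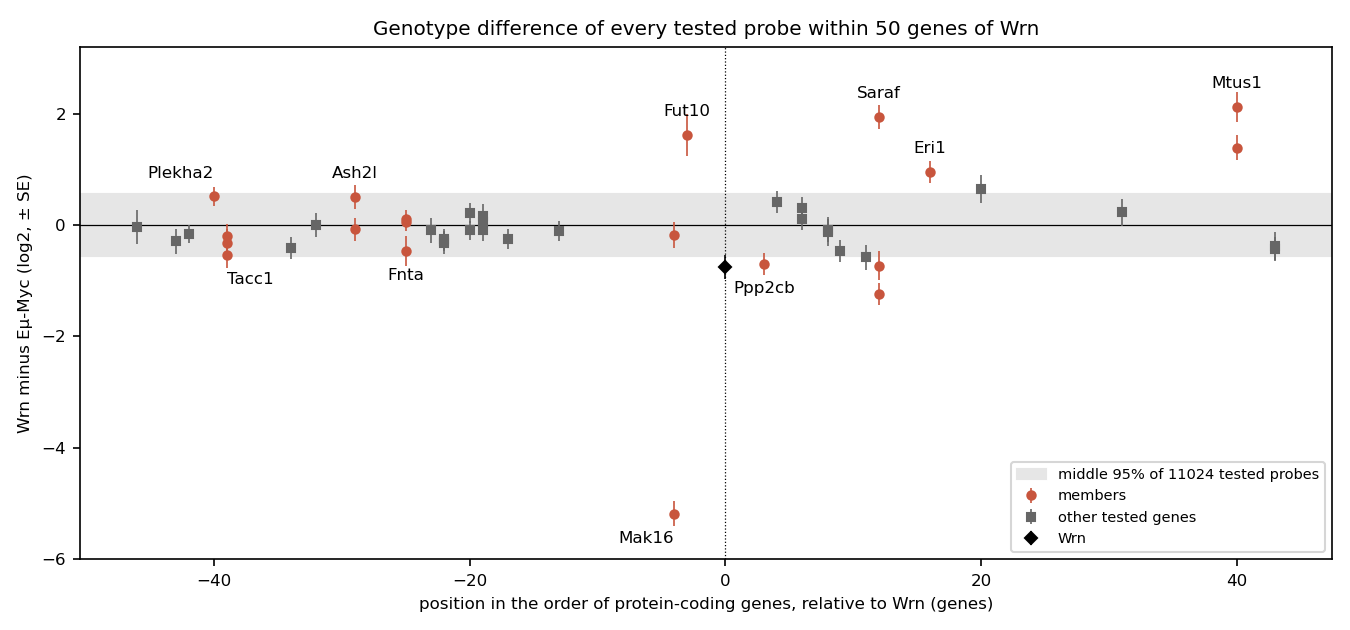
Genotype difference (Wrn minus Eµ-Myc, log2, whiskers SE) of every tested probe within 50 genes of Wrn, by the gene's position in the order of protein-coding genes (horizontal axis, Wrn at 0). Red circles are probes of the 10 members, grey squares other genes, the black diamond Wrn, and the grey band, from -0.55 to 0.56, holds the middle 95% of all tested probes. Members lie up to 40 genes away on both sides, higher and lower, with other genes between them inside or near the band.

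The letters E and L, which were not used to choose the members, were compared in a model that also held genotype. Of the members' probes 0 of 19 passed for the letter (limma, Benjamini-Hochberg adjusted p from 0.732 to 0.998) beside 0.0181% of all tested probes, and 0 of 19 reached an unadjusted p under 0.05 beside 7.44%. Signal was higher in L tumours for 14 probes and lower for 5, with log2 differences from -0.36 to 0.43. Their median, with sign, was 0.14, and 0.011 over all tested probes. The share of all tested probes that were higher in L tumours is not given, so nothing is read from the count of signs. Letter differences (L minus E) follow for the probes of Mak16, Saraf and Mtus1 that separated the genotypes. They were 0.26 (95% interval -0.21 to 0.74) for ILMN_3009910, 0.0035 (-0.48 to 0.49) for ILMN_2881296 and 0.076 (-0.37 to 0.53) for ILMN_1258965. The Mtus1 probes had 0.20 (-0.41 to 0.81) for ILMN_3142257 and 0.16 (-0.35 to 0.68) for ILMN_3163347. For the Mak16 and Mtus1 probes among these, most or all readings of 1 genotype were below the detection limit, so part of these values is background. The median size over the 19 probes was 0.15, and 0.18 over all tested probes. Beside this, granulocyte markers were lower in L tumours for 7 of 7 probes, with a median of -1.65. Endothelial markers were higher for 1 of 9 (median -0.55), erythroid for 3 of 3 (0.57) and T cell for 3 of 3 (0.49). B cell markers were higher for 4 of 13 (-0.048) and macrophage for 5 of 14 (-0.069). In each list 0 probes passed for the letter, and the part of these cell types was not tested.

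Whether the genotype difference depended on the letter was asked with the interaction term. Of the 19 probes 0 passed (limma adjusted p from 0.937 to 0.999), where 0% of all tested probes did, and 1 reached an unadjusted p under 0.05 beside 5.03% of all. That probe was ILMN_3126933 of Tacc1, which differed between genotypes by -0.020 in E tumours and by -1.04 in L tumours on the log2 scale (interaction -1.02 ± 0.40 SE, limma adjusted p = 0.937). For Ash2l the genotype difference on ILMN_3154222 was 0.11 in E and 0.90 in L tumours (interaction 0.79 ± 0.36, limma adjusted p = 0.937). For the 9 probes with separated genotypes the sign in E and in L is fixed by that separation, and the sizes in E and L were, for example, -5.45 and -4.91 for Mak16, 2.23 and 1.66 for ILMN_2881296 of Saraf, and 1.75 and 2.50 for ILMN_3142257 of Mtus1. With 2 tumours of each genotype and letter these differences are imprecise, and a probe that did not pass is not thereby shown to have equal differences in E and L. The 95% intervals of the interaction spanned from -0.38 to 1.46 for that Mak16 probe and from -0.44 to 1.93 for that Mtus1 probe. Most or all readings of 1 genotype on these Mak16 and Mtus1 probes were below the detection limit. Their sizes and intervals therefore depend on how undetected readings are treated.

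**Figure D4:**
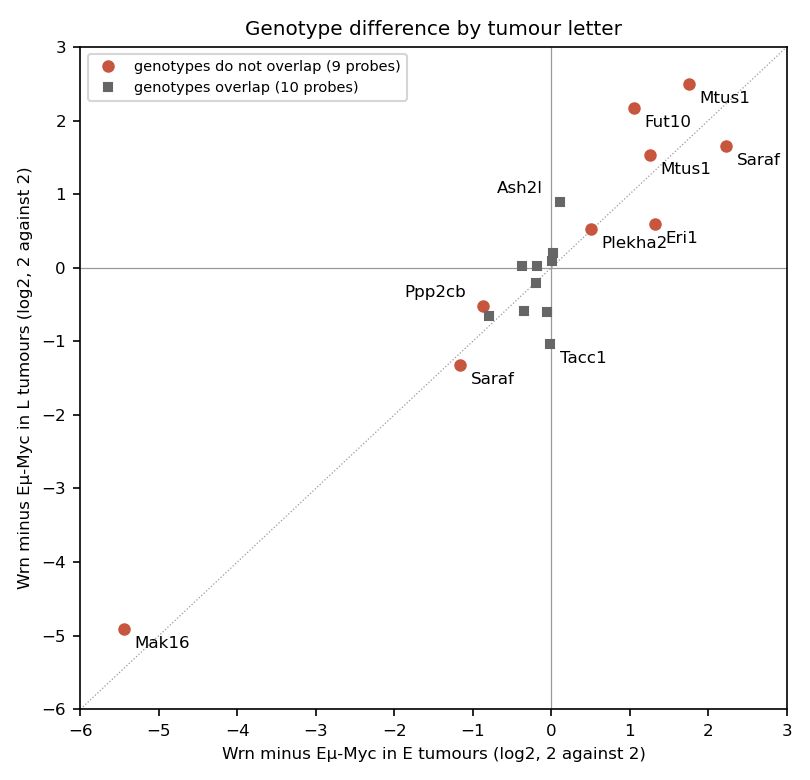
Genotype difference (Wrn minus Eµ-Myc, log2) in L tumours (vertical axis) against that in E tumours (horizontal axis), each from 2 against 2 tumours, for the 19 tested probes. Red circles are the 9 probes whose genotypes do not overlap, grey squares the other 10, and the dotted line marks equal differences. The red points must have the same sign on both axes, since their genotypes do not overlap, and Tacc1 and Ash2l lie at -0.020 and 0.11 in E and at -1.04 and 0.90 in L.

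Genes whose pattern over the 8 tumours was most like that of Mak16, Saraf and Mtus1 were looked up by Pearson correlation over all tested probes of other named genes, as a description. For ILMN_3009910 of Mak16 they were Plekha1 (r = -0.97), Cnga1 (0.95) and Mga (-0.94). For ILMN_2881296 of Saraf they were Plekha1 (0.98), Hbp1 (0.96) and Cnga1 (-0.93), and for ILMN_3142257 of Mtus1 Rtf2 (-0.97), Ccdc124 (-0.95) and A430078G23Rik (0.95). Each r is over 8 tumours that share the same genotype split, and of these genes Plekha1 and Cnga1 were named for both Mak16 and Saraf.

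Genes that encode partners or paralogs of the members were read last. They include some other subunits of protein phosphatase 2A, of the prenyltransferases and of the Ash2l complexes, and Stim1 and Orai1 of store-operated calcium entry. Of 26 such genes 15 were tested with 18 probes, 9 higher and 9 lower, with a median log2 difference of 0.014 (0.0068 over all tested probes). By limma 0 of 18 passed, beside 0.0363% of all probes, and 2 reached an unadjusted p under 0.05, beside 3.76%. Both were probes of Plekha1, the paralog of Plekha2, at 0.59 ± 0.15 and 0.41 ± 0.19 (SE, limma adjusted p = 0.973). On these 2 of the 18 probes the genotypes did not overlap, beside 2.21% of all tested probes. The next lowest p was that of Dpy30, a partner of Ash2l, at -0.35 ± 0.21 (limma adjusted p = 0.973). Stim1, the calcium sensor on which Saraf acts, differed by -0.0053 ± 0.20 and Rpf1, another assembly factor of the large ribosomal subunit, by 0.040 to 0.17 on 3 probes.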

How the data were processed

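RNA of 8 tumours was measured on Illumina bead arrays. Each tumour has 2 records, for the processings its titles name, and was counted once. The non-normalized table holds, per the file headers, average bead intensity and a detection p-value as deposited. The series matrix holds the authors' lumi intensity as deposited (linear, with values below 0 and nearly the same sorted values on every array) and the authors' deposited Illumina GUI score, whose square root was found to match log2 lumi to 0.0102 for lumi values over 1000. No source used here gives the settings or versions behind these. The tables name probes differently and were joined by their ranks on 8 arrays; all 25697 joined one to one. Gene names were read from the platform annotation and brought up to date by gene number in GRCm38.p6 (23978 probes named, 1719 not listed with a gene); that table gave gene order only, since no source used here gives the array's build.

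Signals were normalized with neqc of limma 3.58.1 (R 4.3.3; offset 16, which understates changes of dim probes), and 11024 probes were fitted with lmFit and eBayes, two-sided, with Benjamini-Hochberg adjustment over all of them and a threshold of 0.05. The fits were tested on simulated data. The bound for undetected groups used the lowest signal among detected probes of each array. The number of arrays limits the precision. Python 3.11.15 with scipy 1.17.1 was used. The members, lists and named genes were chosen with earlier results of these data known; named are all members, 2 neighbours per sign, the 3 most alike genes and the partners of lowest p. Plpp5, Thap1, Copg1, Stim1, Rpf1 and the within-genotype correlations were added after values were seen. Alternatives were other offsets, the lumi and GUI values, other scaling and filters, array weights, a replicate block, the letter as covariate and each tumour left out.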

Additional observations from a re-analysis of the deposited data

Results flagged for a closer look

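Within 38 groups of 4 tumours (19 probes in 2 genotypes), 3 readings stood apart from the rest of their group by Dixon's criterion for 4 values, which chance alone does in about 1 of 20 groups. Fut10 probe ILMN_3011294 was 6.37 on the log2 scale in Eµ-Myc tumour 1, against 4.46 to 4.58 in the other Eµ-Myc tumours. Mak16 probe ILMN_2701035 was 8.93 in Eµ-Myc tumour 3, against 9.16 to 9.20, and Saraf probe ILMN_1258965 was 9.18 in the same tumour, against 9.44 to 9.47. The Saraf gap is small beside the genotype difference of that probe, -1.24. The Mak16 gap is not small beside that of its probe, -0.18.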

How the results depend on the processing

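The count of member probes with separated genotypes was 9 and lay between 9 and 10 in the alternatives, except 4 when detection on all 8 arrays was required, which left fewer probes. With a tumour left out it lay between 9 and 10. The count of 19 other genes with a separated probe, 2 in the report, was 1 under median scaling. It was 2 to 6 with a tumour left out, where groups separate more easily. Letter and interaction calls stayed at 0 in every alternative that gave a value, as did calls among partners, and Saraf remained the 1 member with probes wholly apart in both directions. Sizes of dim probes depended on the processing: ILMN_3009910 of Mak16 ran from -7.28 (lumi values, floor 1) to -3.98 (neqc offset 50), ILMN_3142257 of Mtus1 from 1.27 to 3.66, ILMN_3163347 of Mtus1 from 0.70 to 4.03, Fut10 from 0.94 to 2.84 and Eri1 from 0.51 to 1.81. Deviations of tumours with the same replicate number correlated at -0.0037, -0.18, -0.21 and -0.19. Tumours with the same number always carry opposite letters, so these values cannot tell whether the numbers pair tumours. With the replicate block the separated count was 9 and letter calls 0; the interaction could not be fitted with the block, since both are the same contrast.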
